A study of Bos taurus with 14 samples.

Results

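Albumin, transthyretin, retinol-binding protein, the 2 fetuins, vitamin D-binding protein, corticosteroid-binding globulin and the alpha-1-microglobulin/bikunin precursor are plasma proteins made by hepatocytes. They are grouped here as negative acute phase carriers, a class named for plasma levels that go down in inflammation in humans. Whether each of them belongs there was not tested. Their 8 genes (ALB, TTR, RBP4, AHSG, FETUB, GC, SERPINA6 and AMBP) were taken by symbol from the 17469 genes of the liver table. All 8 were found, and all 8 passed the filter on low values. Their levels were measured in liver from 14 Holstein bull calves, taken after slaughter on day 90, with 1 poly(A)-selected RNA library per calf.

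DCLI calves (n = 7) were fed a postbiotic, a preparation of killed bacteria: Lactobacillus ingluviei CR37, at 1 g of dead cells daily. CON calves (n = 7) were not. All calves of both groups were males of one breed, drank milk replacer at 1.75% of body weight, had starter from day 33, received 50% of the milk replacer from day 82 and were weaned by day 89. The design names DCLI as its one treated group, and the titles marked TRT were read as that group.

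In the acute phase response, cytokines from activated macrophages, above all interleukin 6, change the set of plasma proteins that hepatocytes make. Positive acute phase proteins, of which haptoglobin (HP) is the classical one in cattle, go up, and albumin and several carriers of small molecules go down. The carriers have different cargoes: fatty acids and bilirubin for albumin, thyroxine for transthyretin, retinol for RBP4, vitamin D for GC and cortisol for SERPINA6.

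Values are TPM, a transcript abundance scaled for transcript length and for the library total. They were summed over the transcripts of a gene, so levels can be compared between genes. Sequencing depth cannot be read from TPM, and a value says nothing of the count behind it. A library total that is fixed also means that a few very abundant mRNAs lower the values of all others. The 8 genes together held 4.08% to 12.7% of the TPM of a DCLI library and 6.47% to 11.4% of that of a CON library. Markers of hepatocytes, none of them among the 8, summed to between 39216 and 50736 TPM in DCLI livers. In CON livers they summed to between 32940 and 44617 TPM, and 16 of the 17 passed the filter. TF (transferrin), FGB (a fibrinogen chain) and APOA1 (an apolipoprotein) led that sum, and FGB was also on the list of positive acute phase genes. The sum is therefore not a measure of hepatocyte content apart from the acute phase. DCLI calf 6 stood apart in many of the 8 genes, and CON calf 2 had the highest macrophage and T cell marker levels, so values are also given without DCLI calf 6 where they move. In bulk liver, fewer cells of a type and less RNA per cell cannot be told apart.

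Serum albumin, the main protein of plasma, had the highest level of the 8 genes. ALB ranged from 20424 to 72506 TPM in DCLI calves, with a median of 60279 TPM, and from 32053 to 64996 TPM in CON calves, with a median of 50853 TPM. ALB ranked first among all genes in every CON library, and its rank in DCLI libraries went from 1 to 6. GC, the vitamin D-binding protein, belongs to the same protein family and lies on the same chromosome as ALB in the RefSeq gene table. It ranged from 3217 to 5380 TPM in DCLI calves (median 4826 TPM) and from 3032 to 5565 TPM in CON calves (median 3959 TPM). All 7 DCLI values of GC lay inside the CON range.

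AHSG and FETUB encode fetuin-A and fetuin-B, liver glycoproteins of the cystatin superfamily. Fetuin-A keeps calcium phosphate in solution, and fetuin-B is known from the mouse as an inhibitor of the egg protease ovastacin. In the RefSeq gene table the 2 genes are direct neighbours. AHSG ranged from 4343 to 15422 TPM in DCLI calves (median 12231 TPM) and from 5923 to 12978 TPM in CON calves (median 9820 TPM). FETUB stood far lower, from 57.2 to 446 TPM in DCLI calves (median 318 TPM) and from 334 to 691 TPM in CON calves (median 416 TPM). The groups overlapped in both genes, but 6 of 7 DCLI calves lay below the CON median of FETUB, while 5 of 7 lay above the CON median of AHSG.

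TTR and RBP4 encode transthyretin and retinol-binding protein, which travel in plasma as one complex. TTR ranged from 961 to 13570 TPM in DCLI calves (median 11054 TPM) and from 3322 to 12403 TPM in CON calves (median 8686 TPM). RBP4 ranged from 6582 to 9735 TPM in DCLI calves (median 9226 TPM) and from 6142 to 10070 TPM in CON calves (median 8638 TPM). The partners thus differed in how far they varied: the highest TTR of the 14 calves was 14.1 times the lowest, against 1.64 times for RBP4.

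SERPINA6, corticosteroid-binding globulin, had the lowest level and the widest range of the 8. It ranged from 2.36 to 54.6 TPM in DCLI calves (median 27.9 TPM) and from 2.45 to 53.3 TPM in CON calves (median 22.2 TPM). The lowest value of each group was its only one under 5 TPM. AMBP encodes a precursor that is cut into alpha-1-microglobulin, which binds heme, and bikunin, a protease inhibitor. It ranged from 5161 to 11442 TPM in DCLI calves (median 8579 TPM) and from 7303 to 9404 TPM in CON calves (median 8801 TPM).

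By mean level over all calves the order was ALB, AHSG, TTR, AMBP, RBP4, GC, FETUB and SERPINA6. ALB was above AHSG, RBP4 above GC, GC above FETUB and FETUB above SERPINA6 in 14 of 14 calves. AHSG was above TTR in 12 of 14. TTR was above AMBP in 8 of 14 calves and AMBP above RBP4 in 6 of 14, so these 3 genes had no fixed order.

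**Figure D1:**
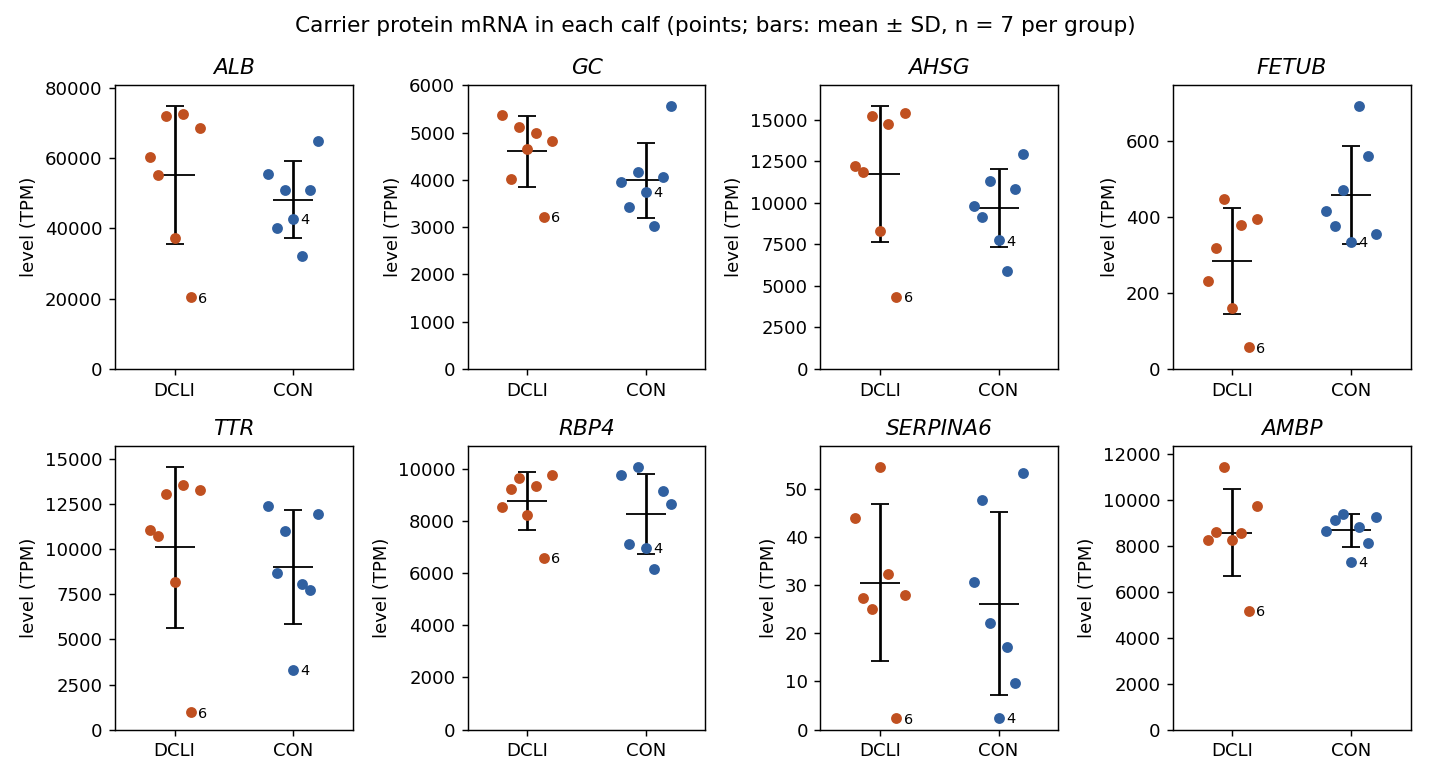
Level of the 8 genes (TPM, linear axis from 0) in each calf, with DCLI left and CON right; points are calves, black bars the mean and SD (n = 7 per group), and the numbers mark DCLI calf 6 and CON calf 4. DCLI calf 6 was the lowest DCLI calf in all 8 panels, and CON calf 4 was the lowest CON calf for TTR, SERPINA6, FETUB and AMBP.

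One DCLI liver stood apart from the rest. DCLI calf 6 had the lowest level of its group in all 8 genes, and the lowest of all 14 calves in 6 of them, GC and RBP4 being the exceptions. In CON, calf 4 was lowest in 4 genes (TTR, FETUB, SERPINA6 and AMBP) and calf 5 in the other 4 (ALB, GC, AHSG and RBP4). Without DCLI calf 6 the highest TTR was 4.08 times the lowest, and the same figure for FETUB was 4.31, against 14.1 and 12.1 with it. For SERPINA6 it was 22.3, against 23.1, with CON calf 4 nearly as low as DCLI calf 6.

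The comparison of DCLI with CON asks whether the supplement went with a change in these mRNAs. None of the 8 genes passed between the groups at an adjusted p of 0.05 (limma, two-sided, Benjamini-Hochberg over 11905 genes). The background was the same, with 0% of all tested genes past that threshold, and 0 of all genes by an exact rank-sum test. With 7 calves per group the smallest exact p is 0.000583, too large for a few genes to pass after adjustment. That rank-sum count therefore decides little. With sample weights, 1388 genes passed and none of the 8 did. At an unadjusted p under 0.05, FETUB was the one member, beside 8.89% of all genes in either direction and 3.19% of all genes with a lower level in DCLI.

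FETUB averaged 283 ± 140 TPM in DCLI calves and 458 ± 128 TPM in CON calves (SD, n = 7 each). The log2 fold change on the scale of log2(TPM + 1) was -0.89 ± 0.37 (SE), with a 95% interval from -1.67 to -0.10 and an adjusted p of 0.504 by limma. Without DCLI calf 6 the log2 fold change was -0.55.

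ALB averaged 55193 ± 19680 TPM in DCLI calves and 48228 ± 10842 TPM in CON calves (SD, n = 7 each), a log2 fold change of 0.12 with a 95% interval from -0.48 to 0.71. AHSG averaged 11736 ± 4108 TPM in DCLI calves and 9683 ± 2346 TPM in CON calves, a log2 fold change of 0.21 (interval -0.36 to 0.78). GC averaged 4602 ± 745 TPM in DCLI calves and 3995 ± 796 TPM in CON calves, a log2 fold change of 0.21 (interval -0.11 to 0.53). Each of these intervals spans 0, so no direction was established for albumin, fetuin-A or the vitamin D-binding protein. The log2 fold changes of ALB and AHSG were 0.34 and 0.43 without DCLI calf 6, and 0.023 and 0.098 without CON calf 5.

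TTR averaged 10106 ± 4457 TPM in DCLI calves and 9016 ± 3139 TPM in CON calves. Its log2 fold change was -0.06 (interval -1.14 to 1.02), opposite in sign to the difference of the mean and of the median TPM, and it was 0.45 without DCLI calf 6. SERPINA6 averaged 30.5 ± 16.3 TPM in DCLI calves and 26.1 ± 19.0 TPM in CON calves, a log2 fold change of 0.32 (interval -1.03 to 1.67), 0.80 without DCLI calf 6 and -0.11 without CON calf 4. These 2 intervals are the widest of the 8 and leave room for changes of more than 2-fold either way.

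RBP4 averaged 8753 ± 1110 TPM in DCLI calves and 8255 ± 1520 TPM in CON calves, a log2 fold change of 0.10 (interval -0.22 to 0.41), 0.16 without DCLI calf 6 and 0.028 without CON calf 5. AMBP averaged 8570 ± 1889 TPM in DCLI calves and 8668 ± 737 TPM in CON calves, a log2 fold change of -0.05 (interval -0.38 to 0.29), and 0.07 without DCLI calf 6. For these 2 genes, as for GC, the intervals exclude a change of 1.5-fold in either direction. The adjusted p of the 7 genes other than FETUB lay between 0.693 and 0.981 by limma. Of the 8, 5 had a positive log2 fold change and 3 a negative one, beside 51.2% of all genes with a lower level in DCLI. The median log2 fold change of the 8 was 0.11, beside -0.0052 over all genes tested.

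**Figure D2:**
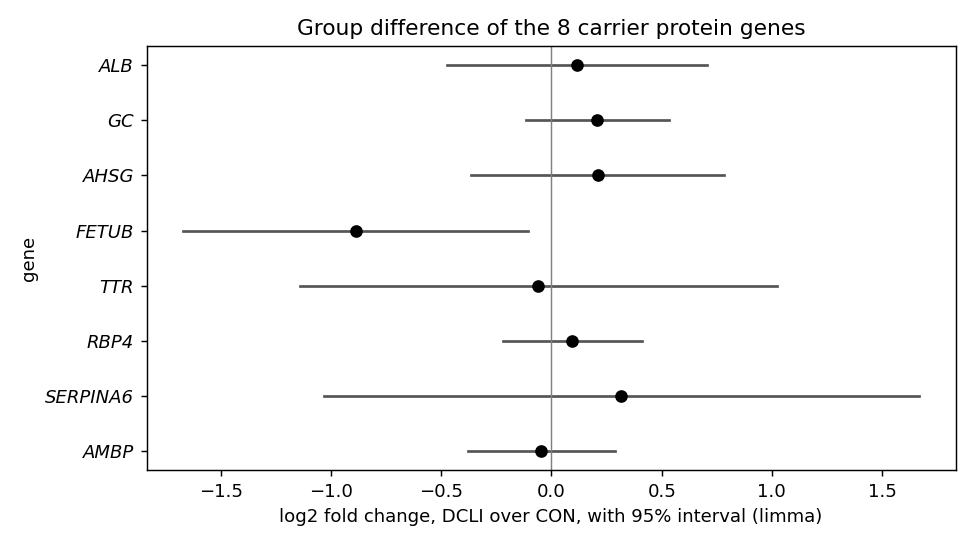
Log2 fold change of DCLI over CON for the 8 genes, on the scale of log2(TPM + 1); points are limma estimates and lines their 95% intervals (n = 7 per group). The interval of FETUB, from -1.67 to -0.10, is the one that does not reach 0, and its adjusted p was 0.504.

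The spread among calves was also compared, because DCLI values looked wider for some genes. The mean absolute deviation from the group median was 0.71 in DCLI and 0.29 in CON for FETUB on the log2 scale, 0.44 and 0.25 for ALB, and 0.21 and 0.09 for AMBP. It was larger in DCLI for 5 of the 8 genes and larger in CON for 3, with 0.13 in DCLI and 0.22 in CON for RBP4, 0.72 and 1.00 for SERPINA6 and 0.17 and 0.18 for GC. These deviations, each kept as measured from the median of the calf's own group, were reassigned to the groups in all 3432 ways. By this two-sided permutation test the unadjusted p was 0.224 for FETUB, 0.478 for ALB and 0.339 for AMBP. The smallest p possible here is above 0.000583, because the median calf of each group has no deviation. None of the 8 genes had an unadjusted p under 0.05, beside 1.82% of all genes. After adjustment 0% of all genes passed, which decides little, because the smallest p possible is too large for a few genes to pass. Without DCLI calf 6 the difference in mean absolute deviation, DCLI minus CON, was 0.13 for FETUB and 0.01 for ALB.

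The neighbouring fetuin genes stood in a different proportion in the groups. FETUB TPM was 1.32% to 2.93% of AHSG TPM in DCLI calves (median 2.56%) and 2.74% to 11.7% in CON calves (median 4.23%). All 7 DCLI calves lay below the CON median, and 1 of them lay within the CON range. CON calf 5 had the highest proportion, with 691 TPM of FETUB and the lowest AHSG of its group. This pair was looked at after the values of both genes were known, so the proportion is given with no test. The proportion of GC to ALB did not separate the groups in this way. It was 6.88% to 15.8% in DCLI calves (median 7.28%) and 7.12% to 9.46% in CON calves (median 8.52%). The 2 highest values, 15.8% and 12.6%, were those of DCLI calves 6 and 4, the livers with the least ALB mRNA in that group.

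**Figure D3:**
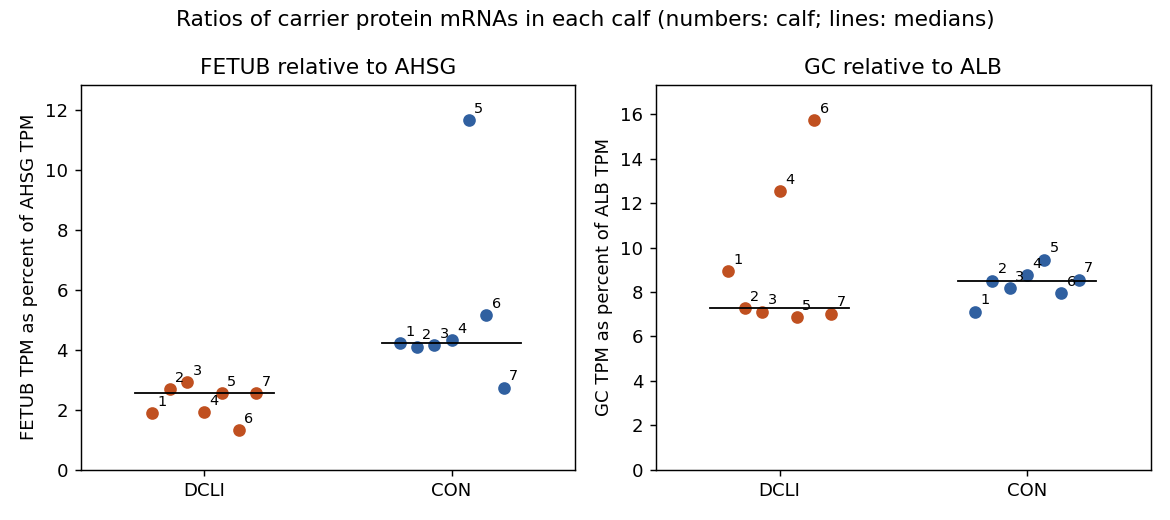
FETUB TPM as a percentage of AHSG TPM (left) and GC TPM as a percentage of ALB TPM (right) in each calf, DCLI left of CON in each panel, with the calf's number beside its point and a line at the group median. In the left panel DCLI calves sit between 1.32% and 2.93% and CON calves between 2.74% and 11.7%.

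Most of the genes were listed with a single transcript. The table holds 11 transcripts for the 8 genes: 1 each for 6 genes, 2 for GC and 3 for RBP4. The 1 transcript of SERPINA6 is a predicted model, so the whole level of that gene rests on it. The first GC transcript carried 96.5% to 97.4% of the gene's TPM in DCLI calves and 96.8% to 98.0% in CON calves. The second, a predicted model, averaged 138 ± 22.6 TPM in DCLI calves and 106 ± 28.8 TPM in CON calves, with 7 of 7 DCLI calves above the CON median. Its log2 fold change was 0.41 ± 0.16 (SE), with an adjusted p of 0.379 by limma over 19045 transcripts, of which 0% passed.

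The second RBP4 transcript, also a predicted model, took values of 2 kinds. It had 85.9 to 131 TPM in 4 calves, DCLI calf 4 and CON calves 5, 6 and 7, and 2.49 to 11.04 TPM in the other 10. At its highest it made up 1.60% of the gene's TPM, so it hardly touched the level of RBP4. The split did not follow the groups, with 1 DCLI calf and 3 CON calves at the higher values.

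Because these genes were grouped as negative acute phase genes, their levels were set against HP mRNA, which differed widely between calves. HP ranged from 138 to 29341 TPM in DCLI calves (median 901 TPM) and from 46.6 to 21480 TPM in CON calves (median 5311 TPM), with a log2 fold change of -0.29 (adjusted p 0.966 by limma). DCLI calf 6, the calf with the lowest carrier levels, had the highest HP of all. CON calf 4 had the second highest HP and lay below the median of the 14 calves in all 8 genes. DCLI calf 7, among the 4 calves of lowest HP, lay below that median in none.

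TTR showed the closest relation by rank. Across the 14 calves its Spearman rho with HP was -0.88 (permutation p 3e-05) and its Pearson r on the log2 scale -0.63 (permutation p 0.00951). Without the 2 calves whose HP lay farthest from the median, CON calf 1 and DCLI calf 5, r was -0.65. These were the 2 calves of lowest HP, so DCLI calf 6, with the highest HP, stayed in. Within groups rho was -0.89 in DCLI (exact permutation p 0.0123) and -0.96 in CON (exact permutation p 0.00278, n = 7 each). TTR was 961 TPM and 3322 TPM in the livers with the highest and second highest HP, and 7715 TPM or more in the other 12.

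ALB, AHSG and RBP4 were also lower where HP was higher. For ALB, r was -0.71 (permutation p 0.00311) and rho -0.79 (permutation p 0.00118), with r of -0.80 in DCLI and -0.70 in CON (exact permutation p 0.00873 and 0.0833, n = 7 each) and -0.77 without the 2 outermost calves. For AHSG, r was -0.66 (permutation p 0.00924) and rho -0.73 (permutation p 0.00371), with r of -0.80 in DCLI and -0.53 in CON (exact permutation p 0.0117 and 0.225) and -0.79 without the 2 outermost calves. For RBP4, r was -0.69 (permutation p 0.00743) and rho -0.76 (permutation p 0.00251), with r of -0.82 in DCLI and -0.61 in CON (exact permutation p 0.00933 and 0.153) and -0.67 without the 2 outermost calves (permutation p 0.0187). The sign of the relation was thus the same in both groups for albumin, fetuin-A and retinol-binding protein.

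The other 4 genes had weaker relations to HP, none with a permutation p of r under 0.05 over all 14 calves. AMBP had r of -0.50 and rho of -0.59 (permutation p 0.0577 and 0.0280), and r was -0.67 without the 2 outermost calves (permutation p 0.00609). GC had r of -0.46 and rho of -0.49 (permutation p 0.101 and 0.0801), and r was -0.58 without these calves (permutation p 0.0479). SERPINA6 had r of -0.48 and rho of -0.46 (permutation p 0.0812 and 0.101), and r was -0.51 without them (permutation p 0.0869). Within groups r was -0.63 in DCLI and -0.42 in CON for AMBP, -0.42 and -0.52 for GC and -0.32 and -0.62 for SERPINA6, and none of these 6 had an exact permutation p under 0.05. FETUB had r of -0.36 and rho of -0.30 (permutation p 0.217 and 0.303), r was -0.37 without the outermost calves, and its values by group are given after the slopes. Over the 13 calves other than DCLI calf 6, r was -0.71 for ALB and TTR, -0.64 for RBP4 and -0.61 for AHSG (permutation p 0.0073, 0.00318, 0.0190 and 0.0267). It was -0.41 for AMBP, -0.37 for GC and SERPINA6 and -0.14 for FETUB (permutation p 0.165, 0.219, 0.226 and 0.643). These p-values are for 8 relations and are not adjusted. The adjusted p of each comes from the fit over all genes that follows.

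**Figure D4:**
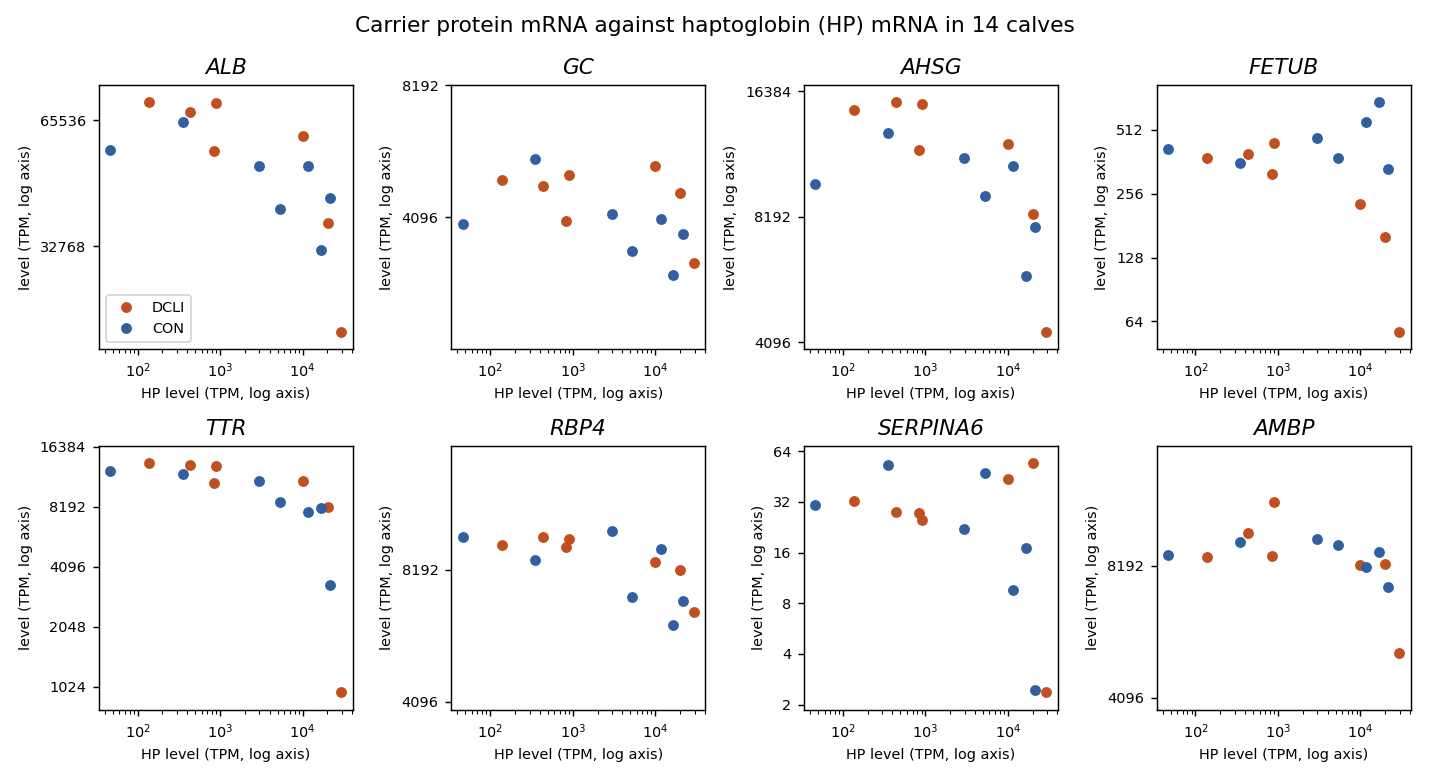
Level of each of the 8 genes against the level of HP in the same liver (TPM, both axes logarithmic), with 1 point per calf, DCLI orange and CON blue. TTR lies lower where HP is higher in both colours, FETUB does so in DCLI calves but not in CON calves, and the lowest point of most panels is DCLI calf 6, at the highest HP.

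When the slope on HP was fitted across all genes with the group as a term, all 8 members had negative slopes and none passed an adjusted p of 0.05 (limma, over 11904 genes). Past that threshold were 4.58% of all genes, and 3.89% of all genes passed it with a negative slope. The calls were 463 negative and 82 positive, against 10 negative and 87 positive with median-ratio scaling, 25 and 72 with quantile normalization and 45 and 59 without the 20 most abundant genes in the total, and 116 in all without DCLI calf 6. At an unadjusted p under 0.05, 4 of the 8 members (ALB, TTR, AHSG and RBP4) had a negative slope, beside 25.3% of all genes. A negative sign alone was common, at 83.2% of all genes. The median slope of the 8 was -0.11 units of log2(TPM + 1) per log2 unit of HP, and the median over all genes was -0.029.

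TTR had the steepest slope, -0.22 ± 0.071 (SE), with an adjusted p of 0.0842 by limma, and SERPINA6 followed with -0.21 ± 0.10 (adjusted p 0.195). By size of slope alone, 0.185% and 0.227% of all tested genes had a more negative slope than these. That rank allows neither for the SE nor for how widely a gene varied between calves. It was taken from TPM as deposited with all calves in. The SERPINA6 slope had an unadjusted p of 0.0581 by limma. With the replicate block the slopes were -0.10 for TTR and -0.022 for SERPINA6. The slopes of ALB, AHSG and FETUB were -0.12 ± 0.036, -0.11 ± 0.037 and -0.11 ± 0.059, with adjusted p of 0.0629, 0.0804 and 0.232 by limma. Those of RBP4, AMBP and GC were -0.053 ± 0.020, -0.043 ± 0.024 and -0.040 ± 0.023, with adjusted p of 0.117, 0.245 and 0.272. Of all tested genes, 17.4%, 28.7% and 32.7% had a more negative slope than RBP4, AMBP and GC, so the slopes of AMBP and GC were close to those of many other genes.

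The slopes depended on how the library total was treated. Median-ratio scaling, which brought the median slope over all genes to -0.00041, left slopes of -0.18 for TTR, -0.17 for SERPINA6, -0.083 for ALB and -0.076 for AHSG. It brought those of RBP4, AMBP and GC to -0.018, -0.0087 and -0.0045. The positive acute phase list took 7.97% to 23.0% of the TPM of a DCLI library and 7.04% to 19.0% of that of a CON library, with the highest share in DCLI calf 6. With the total taken without those genes, the slopes were -0.19 for TTR, -0.096 for ALB, -0.089 for AHSG and -0.029 for RBP4. Without DCLI calf 6 the slope was -0.12 for TTR, -0.12 for SERPINA6, -0.084 for ALB, -0.075 for AHSG and -0.042 for FETUB. All 8 signs stayed negative under each of these 3 settings.

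**Figure D5:**
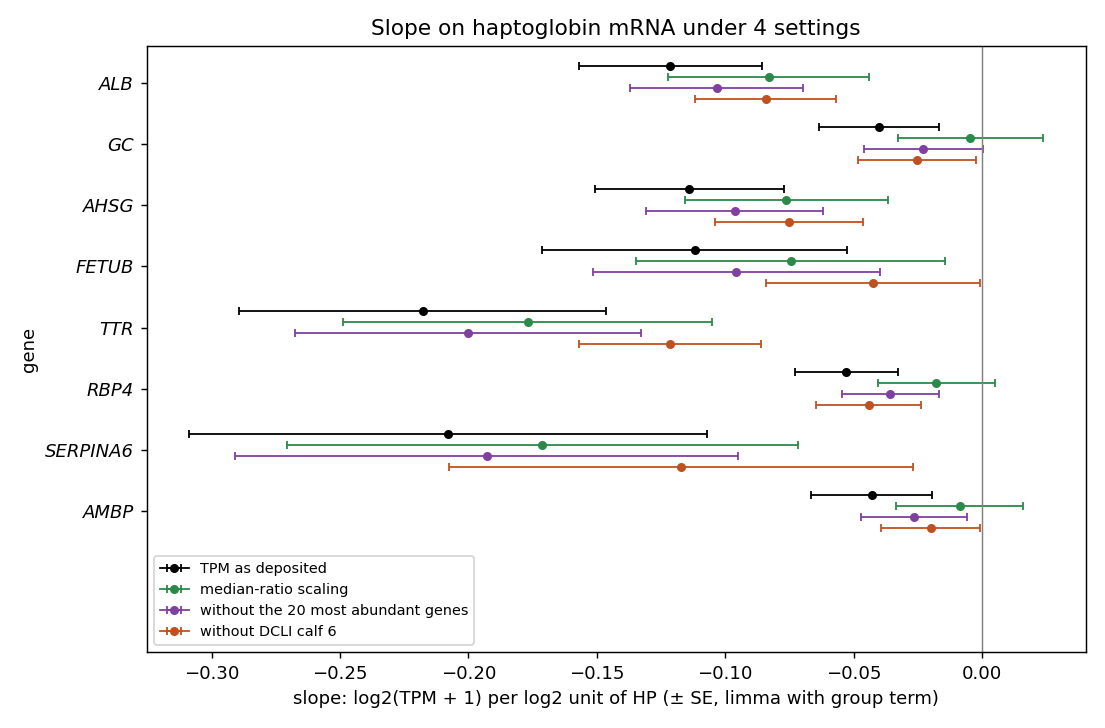
Slope of each gene on HP, in units of log2(TPM + 1) per log2 unit of HP, with SE bars, from limma with the group as a term: TPM as deposited, median-ratio scaling, the total without the 20 most abundant genes, and all calves but DCLI calf 6. TTR lies between -0.22 and -0.12 in the 4 settings, and GC between -0.040 and -0.0045.

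FETUB was the one gene of the 8 whose relation to HP had opposite signs in the groups. In DCLI, r was -0.84 (exact permutation p 0.00615, n = 7), and in CON it was 0.33 (exact permutation p 0.484, n = 7). The slopes were -0.29 ± 0.063 in DCLI and 0.038 ± 0.058 in CON (SE). Their difference, DCLI minus CON, was -0.33 ± 0.085 with an unadjusted p of 0.00195, and it did not pass over all genes (adjusted p 1.00 by limma). No gene of the 8 passed in that test, beside 0% of all genes, and FETUB was the one with an unadjusted p under 0.05, beside 2.63% of all genes. In the 3 DCLI livers with the highest HP, calves 6, 4 and 1, FETUB had 57.2, 160 and 230 TPM, while in the 3 CON livers with the highest HP, calves 4, 5 and 6, it had 334, 691 and 559 TPM. The difference of the slopes was -0.22 without DCLI calf 6.

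Cell type markers were set beside the slopes on HP. Of the neutrophil markers 5 of 9 passed the filter, and all 5 had positive slopes, beside 16.8% of all genes. At the threshold 3 passed (S100A8, S100A9 and S100A12, calcium-binding proteins of granulocytes), and 1 passed without DCLI calf 6. Of all genes, 0.689% passed with a positive slope. The summed level of the neutrophil markers was 25.5 to 255 TPM in DCLI calves and 41.0 to 204 TPM in CON calves, highest in DCLI calf 6. Of 14 macrophage markers and 17 T and NK cell markers all had negative slopes, beside 83.2% of all genes. Of these markers 0 passed, beside 3.89% of all genes passing with a negative slope. The macrophage and the T and NK cell markers summed to 1979 and 68.4 TPM in DCLI calf 6, within the DCLI ranges of 1796 to 5365 and 54.4 to 204 TPM. The CON ranges were 2051 to 8964 and 87.9 to 770 TPM, with both highest values in CON calf 2. Between the groups, 17 of 17 T and NK cell markers, 13 of 14 macrophage markers and 5 of 5 neutrophil markers were lower in DCLI, beside 51.2% of all genes. Of the hepatocyte markers 5 of 16 were lower, and 0 markers of these 4 lists passed. The part of these cells in the slopes and group differences of the 8 genes was not tested.

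Positive acute phase genes gave the other side of the picture. Of 26 tested apart from HP, 25 had positive slopes, beside 16.8% of all genes, and 14 passed, beside 0.689% of all genes with a positive slope, among them FGG and FGA, chains of fibrinogen, with slopes of 0.18 ± 0.026 and 0.17 ± 0.023 (SE). ORM1, the acute phase glycoprotein gene of highest mean level in the list, did not pass (0.070 ± 0.071). The count was 15 without DCLI calf 6 and 13 with median-ratio scaling. Reads of the SAA and SERPINA3 genes may be split among near-identical copies, which leaves those levels uncertain.

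How closely the 8 genes varied together depended on DCLI calf 6. After group means were removed, all 28 pairs of members had a positive Pearson r over the 14 libraries, with a median of 0.74. The median was 0.90 in DCLI and 0.37 in CON, a difference that was not tested, and it was 0.39 over all calves but DCLI calf 6. In CON 23 of 28 pairs were positive, and 26 of 28 were over all calves but DCLI calf 6. FETUB ran against ALB (-0.48), AHSG (-0.43) and GC (-0.49) among CON calves. ALB and AHSG were the closest pair (r = 0.98, and 0.95 without that calf), followed by TTR and AMBP (0.90 and 0.65). FETUB and GC were the least alike (0.37, and -0.24 without it). These values are a description, since the members share libraries and their fixed total.

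Among 7953 other genes with a mean of at least 5 TPM, CES2, a carboxylesterase, was most like ALB (r = 0.97 over 14 libraries, group means removed). SERPIND1, heparin cofactor II, and APOH, a phospholipid-binding plasma protein, came next for ALB (r = 0.95 and 0.94). The same 3 genes were the closest to AHSG (0.92 to 0.95). TTR was most like SLC10A1, the bile acid uptake transporter of hepatocytes (0.96), and SERPINA6 like TSPAN3, a tetraspanin (0.95). HSD11B1, the enzyme that regenerates cortisol, was second for both (0.95 for TTR and 0.90 for SERPINA6). FETUB was most like GATD3A (0.94), followed by FABP1, the liver fatty acid-binding protein (0.89). GC was most like ATP6V0A1, a proton pump subunit (0.94), then TF, transferrin, another carrier (0.93). RBP4 was most like SEMA4B (0.91) and AMBP like CGN1 (0.91). For the mean of the 8 standardised genes, SERPIND1, HADH, APOH, SLC10A1 and ACADS were the most alike (0.94 to 0.98), and MUSTN1, FST, UBXN2A, PTPN3 and ZHX3 the most opposite (-0.94 to -0.85). DCLI calf 6 had the lowest level of the 14 calves in each of these most alike genes and the highest in each of the most opposite. MUSTN1, for one, had 112 TPM in that calf and 1.42 to 5.29 TPM in the other DCLI calves. The r of single genes was not computed without DCLI calf 6, so how far it rests on that liver is not known. All genes named here were picked as the closest of many, so their r has no test.

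Other plasma carriers on the list gave no call between the groups either. Of 22 that passed the filter, 15 were higher and 7 lower in DCLI, beside 48.8% of all genes higher, and 0 passed the test. TF averaged 13167 ± 4384 TPM in DCLI calves and 10065 ± 3030 TPM in CON calves, and APOA2, an apolipoprotein of high-density lipoprotein, 19162 ± 3354 TPM in DCLI calves and 22835 ± 3220 TPM in CON calves. On HP, 18 of 22 had negative slopes, the share found over all genes (83.2%), and 4 passed, all negative, beside 3.89% of all genes: APOC3 (-0.13), SELENOP (-0.082), SHBG (-0.091) and PON1 (-0.18). SELENOP carries selenium, SHBG binds sex steroids, and APOC3 and PON1 travel on lipoproteins. None of the 4 passed with median-ratio scaling, and 1 did without DCLI calf 6. In the albumin family, AFM, afamin, averaged 183 ± 75.7 TPM in DCLI calves and 176 ± 36.4 TPM in CON calves, while AFP, the fetal albumin, did not exceed 0.38 TPM in any calf. AFM and AFP were added to the named genes after their values were seen.

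Genes that handle the cargo of these carriers were counted too. For retinol (18 of 28 list entries passed the filter) 12 were higher and 6 lower in DCLI, beside 48.8% of all genes higher, and 0 passed. RDH16, a retinol dehydrogenase, averaged 770 ± 124 TPM in DCLI calves and 680 ± 214 TPM in CON calves. On HP, 2 of the 18, RXRA and RARB, nuclear receptors of retinoids, passed with slopes of -0.073 and -0.065, beside 3.89% of all genes passing with a negative slope. Of the retinol list, 0 passed with median-ratio scaling or without DCLI calf 6. For thyroid hormone and glucocorticoids 9 of 12 were higher in DCLI, beside 48.8% of all genes, and 0 passed. HSD11B1 averaged 588 ± 222 TPM in DCLI calves and 397 ± 146 TPM in CON calves (log2 fold change 0.50, adjusted p 0.725 by limma). On HP, 11 of these 12 had negative slopes, beside 83.2% of all genes, and 3 passed with a negative slope, beside 3.89% of all genes: DIO1, the deiodinase that activates thyroxine (-0.18), SRD5A1, a steroid reductase (-0.12), and PER1, a clock gene induced by glucocorticoids (-0.11). With median-ratio scaling 0 passed, and 2 did without DCLI calf 6.

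For vitamin D, 4 of 9 list entries passed the filter, 3 were higher in DCLI, beside 48.8% of all genes, and 0 passed on either contrast. CYP2R1, a vitamin D 25-hydroxylase, had 4.63 to 5.85 TPM in DCLI calves and 3.27 to 4.60 TPM in CON calves, a log2 fold change of 0.34 with an adjusted p of 0.365 by limma. Its groups did not overlap, as in 0.0672% of all genes, and it was named after its values were seen. CYP27A1, a sterol 27-hydroxylase, averaged 286 ± 23.0 TPM in DCLI calves and 277 ± 46.8 TPM in CON calves. Bikunin, cut from AMBP, is linked to the heavy chains encoded by ITIH1, ITIH2 and ITIH3. ITIH1 averaged 1539 ± 497 TPM in DCLI calves and 1310 ± 623 TPM in CON calves, and ITIH3 1211 ± 353 TPM in DCLI calves and 1338 ± 276 TPM in CON calves. Of the 11 genes of the bikunin and heme list, 0 passed between groups. ITIH4, an acute phase member, was the one that passed on HP (0.18), beside 0.689% of all genes passing with a positive slope. In the fetuin and kininogen family 5 of 6 tested genes were lower in DCLI, beside 51.2% of all genes, and 0 passed. KNG1, kininogen, averaged 3509 ± 794 TPM in DCLI calves and 3362 ± 591 TPM in CON calves, HRG, the neighbour of FETUB on its other side, 1113 ± 249 TPM in DCLI calves and 1496 ± 564 TPM in CON calves, and CST3, cystatin C, 215 ± 42.5 TPM in DCLI calves and 327 ± 101 TPM in CON calves. HRG lay below the CON median in 7 of 7 DCLI calves, with a log2 fold change of -0.36 (adjusted p 0.685 by limma).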

How the data were processed

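Liver RNA of 14 calves was sequenced by the authors, who selected poly(A) RNA and, per the labels' protocols, removed with SOAPnuke 1.5.6 reads with over 5% unknown bases or over 20% of bases under a quality of 15. The submitters' processing notes name RSEM 1.3.1 and DESeq2 1.4.5. For aligner and build: not given in the sources used here. Deposited values were TPM for 49721 transcripts. Column sums ran from 999997.1 to 1000000.3, so depth and counting error are unknown.

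TPM was summed per gene ID (17469 genes). A gene was kept where 7 or more of the 14 libraries had 1 TPM or more (11905 genes), and log2(TPM + 1) was tested with limma 3.58.1 in R 4.3.3, with p-values adjusted by Benjamini-Hochberg over all genes tested: DCLI against CON, the slope on HP with group as a term, and the difference of that slope. Correlations used 100000 resamples over 14 calves and exact permutation within groups. The limma group and slope terms and the permutation tests of spread and of the mean were tried on simulated data. The slope difference, the rank-sum test and the correlations were not.

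Replicate numbers were not taken as pairs of calves in the main tests, since the sample labels name no pairing. Each library is 1 calf. The 8 genes and the 18 gene lists (281 entries, 271 matched) were chosen with earlier results of these data known. From each list described, genes were named among the 3 of highest mean TPM and those past the threshold, and for each of the 8 the genes of highest r. Alternatives covered the pseudocount, filter, scaling, weights, test, index and each calf left out. Of the gene IDs, 98.8% matched the RefSeq gene table of ARS-UCD2.0, used for names and neighbours. Sequences were not used here.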

Additional observations from a re-analysis of the deposited data

Results flagged for a closer look

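TTR in the liver of DCLI calf 6 stood far from its group. It had 961 TPM, and the gap to the next lowest DCLI calf, calf 4 with 8156 TPM, was 0.571 of the group's whole range. That is just above the 95% critical value of Dixon's test for 7 samples, which chance passes in about 1 in 20 groups. It was the 1 group past that value of 18 examined (the 8 genes and HP in both groups), about what chance gives. The same calf had the highest HP (29341 TPM) and the lowest level of its group in all 8 genes. The part of that calf's HP in its low TTR was not tested.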

How the results depend on the processing

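Of the values for single genes, 781 kept their direction and side of the threshold, 42 reversed and 1 passed it: the ALB slope on HP had an adjusted p of 0.0432 by limma when only genes with a mean of at least 5 TPM were tested. Between the groups 0 genes passed in the main test and 1058 had an unadjusted p under 0.05. The count was 1 with a replicate block and 1388 with sample weights (1210 higher and 178 lower in DCLI), and leaving out 1 calf gave 0 to 12, with 12 without CON calf 7. For the slope on HP 545 genes passed. The count was 97 with median-ratio scaling, 97 with quantile normalization, 104 without the 20 most abundant genes, 96 without positive acute phase genes in the total, 63 with the positive acute phase list as the index, 11 with ORM1, 1 with SAA3 and 6 with the replicate block. Leaving out 1 calf gave 116 (without DCLI calf 6) to 1296 (without CON calf 2). Other counts outside 1.5 times were 183, 286, 245, 216 and 252 without CON calves 1, 4, 5, 6 and 7, and 336, 281, 215 and 121 without DCLI calves 2, 3, 5 and 7. The difference of slopes gave 0, and 0 to 1 with 1 calf left out (1 without DCLI calf 4). Spread gave 0 in every setting, which the smallest p possible made likely in advance. The settings without positive acute phase genes, with ORM1 and with HP as a covariate were chosen after seeing the data.

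No reversed value passed an adjusted p of 0.05, and the cause was not tested unless stated. Some reversed values were larger than the main value, such as the log2 fold change of TTR, which was -0.060 in the main fit. Spread and rank differences have no SE, so their size cannot be set against an error. The ALB log2 fold change was -0.27 with quantile normalization, which gives the top gene of each library one value by construction. That of AMBP was 0.075 with quantile normalization, 0.11 with sample weights and 0.083 without CON calf 2 and DCLI calf 6. For TTR it was 0.52 with weights and 0.46 without those 2 calves, and its mean rank differed by 2.43. Without those 2 calves the spread difference was -0.051 for AHSG and -0.28 for TTR, and the slope difference 0.060 for TTR and 0.017 for RBP4. The RBP4 slope difference was also 0.012 with quantile normalization, 0.0088 without positive acute phase genes and 0.0069 without the 20 most abundant genes. With SAA3 the slope was 0.0076 for AMBP and 0.016 for FETUB. The GC spread difference was 0.0097 from the group mean. With each calf left out, log2 fold changes ranged from -0.12 to 0.070 for AMBP, -0.11 to 0.80 for SERPINA6 and -0.28 to 0.45 for TTR. Slope differences ranged from -0.016 to 0.078 for GC, -0.018 to 0.020 for RBP4, -0.025 to 0.39 for SERPINA6 and -0.25 to 0.056 for TTR. Spread differences ranged from -0.021 to 0.23 for AHSG, -0.081 to 0.040 for GC, -0.67 to 0.019 for SERPINA6 and -0.21 to 0.42 for TTR. Same-numbered calves had r of -0.18 to 0.45, and 3 of 7 numbers matched best with their own. These correlations cannot decide whether the numbers pair the calves, and the sample labels name no pairing. TPM gives no depth, so no limit on low levels such as SERPINA6 could be set.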

Other observations

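Hepatocyte transcription factors and the proteins of albumin recycling and secretion did not pass between the groups, with 0 of 22 and 0 of 19 genes by limma, 6 and 4 of them at an unadjusted p under 0.05, beside 8.89% of all genes. CREB3L3, a liver factor of the acute phase and of lipid metabolism, averaged 249 ± 103 TPM in DCLI calves and 126 ± 63.5 TPM in CON calves (SD, n = 7 each), with a log2 fold change of 0.99 (adjusted p 0.420). HNF4A, a main hepatocyte factor, averaged 130 ± 24.2 TPM in DCLI calves and 128 ± 20.7 TPM in CON calves. XBP1, the factor of the unfolded protein response, averaged 211 ± 46.3 TPM in DCLI calves and 218 ± 71.3 TPM in CON calves. It was the one factor that passed on HP, with a slope of 0.10 ± 0.025 (SE, adjusted p 0.0379 by limma), beside 0.689% of all genes passing with a positive slope. With median-ratio scaling or without DCLI calf 6, 0 of these 22 factors passed on HP. FCGRT, the receptor that saves albumin from breakdown, averaged 472 ± 49.4 TPM in DCLI calves and 404 ± 78.2 TPM in CON calves, and B2M, its light chain, 1303 ± 273 TPM in DCLI calves and 1799 ± 920 TPM in CON calves, the highest being CON calf 2. P4HB, a disulfide isomerase, averaged 1160 ± 231 TPM in DCLI calves and 1006 ± 180 TPM in CON calves. MIA3, which helps to load large cargo for export, had a slope on HP of -0.061 (adjusted p 0.0330 by limma), beside 3.89% of all genes passing with a negative slope. Of the albumin recycling and secretion list, 0 passed with median-ratio scaling or without DCLI calf 6.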
